A study of Mus musculus with 31 samples.

Results

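Liver-type plasma protein genes were followed in mouse kidney as a set of 10: albumin (Alb), the apolipoproteins Apoa1, Apoa2, Apoe and Apob, the fibrinogen chains Fga, Fgb and Fgg, transthyretin (Ttr) and the alpha-1-microglobulin/bikunin precursor (Ambp). The set was chosen by gene name out of 23509 genes in the count tables, and it was selected on the measurements themselves, because Alb and Apoa2 stood among the largest rises with RGLS4326 while being uneven between mice. All 10 passed the filter on low counts that left 15185 genes for testing. Kidneys came from 5 untreated male wild-type CD1 mice, 12 Pcy/CD1 mice given PBS, and 14 Pcy/CD1 mice given subcutaneous RGLS4326 at 25 mg kg−1 monthly from 5 to 30 weeks of age. RGLS4326 is a short anti-microRNA oligonucleotide against miR-17. Pcy mice develop slowly growing kidney cysts. The wild-type mice were age-matched but not injected. The labels conflict on the PBS schedule, which is weekly in each sample's entry and reads as monthly for both agents in the protocol text. Whole kidneys were used, so that fewer cells of a type and less RNA per cell cannot be told apart in any value below.

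Plasma proteins of this kind are made mainly by hepatocytes, which secrete them into blood. The kidney filters or takes back several of them in the proximal tubule through the receptors megalin (Lrp2) and cubilin (Cubn), and it transcribes some of them itself: Apob is used in kidney epithelium for lipoprotein export, Apoe is a lipid carrier made by macrophages and many other cells, and fibrinogen transcripts are known to rise in injured tubules. Fibrinogen is a hexamer built from alpha (Fga), beta (Fgb) and gamma (Fgg) chains in equal numbers, and its genes lie in a cluster and respond to interleukin 6 in liver.

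Gene counts totalled 14892524 to 27459962 per mouse. Levels are given as CPM, counts relative to a common library size after scaling by the trimmed mean of M values (TMM). Wild-type mouse 5 had the highest level of 9 of the 10 genes in its group, all but Ttr. RGLS4326-treated mouse 9 had the highest Alb, Apoa1, Apoa2, Apob, Ttr and Ambp of its group and the lowest Apoe. On a scale over all tested genes on which the wild-type mean is 0 and the PBS mean is 1, mouse 9 stood at 0.113, the other treated mice between 0.575 and 1.13, and the PBS mice between 0.752 and 1.25. Its Lcn2, the kidney injury transcript encoding Ngal, was 2.76 CPM, against 126 to 607 CPM in the other treated mice and 0.944 to 11.2 CPM in wild type. Results that rest on mouse 9 or on wild-type mouse 5 are therefore given with and without them where the value moved. Of all pairs within a group, wild-type mice 3 and 4 had the closest profiles, with a mean chi-square per gene of 2.84 over 10690 genes, against 17.1 in the next wild-type pair. They differed by more than sampling noise, but these counts cannot tell 2 mice from 2 libraries of 1 mouse. They were kept as 2, as labelled, and counting them as 1 sample, an alternative chosen after the data were seen, left 6 of the 10 genes called for PBS against wild type (41.9% of all genes) in place of 7, Fga being the one lost (log2 fold change 0.54, adjusted p = 0.0533, edgeR).

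**Figure D1:**
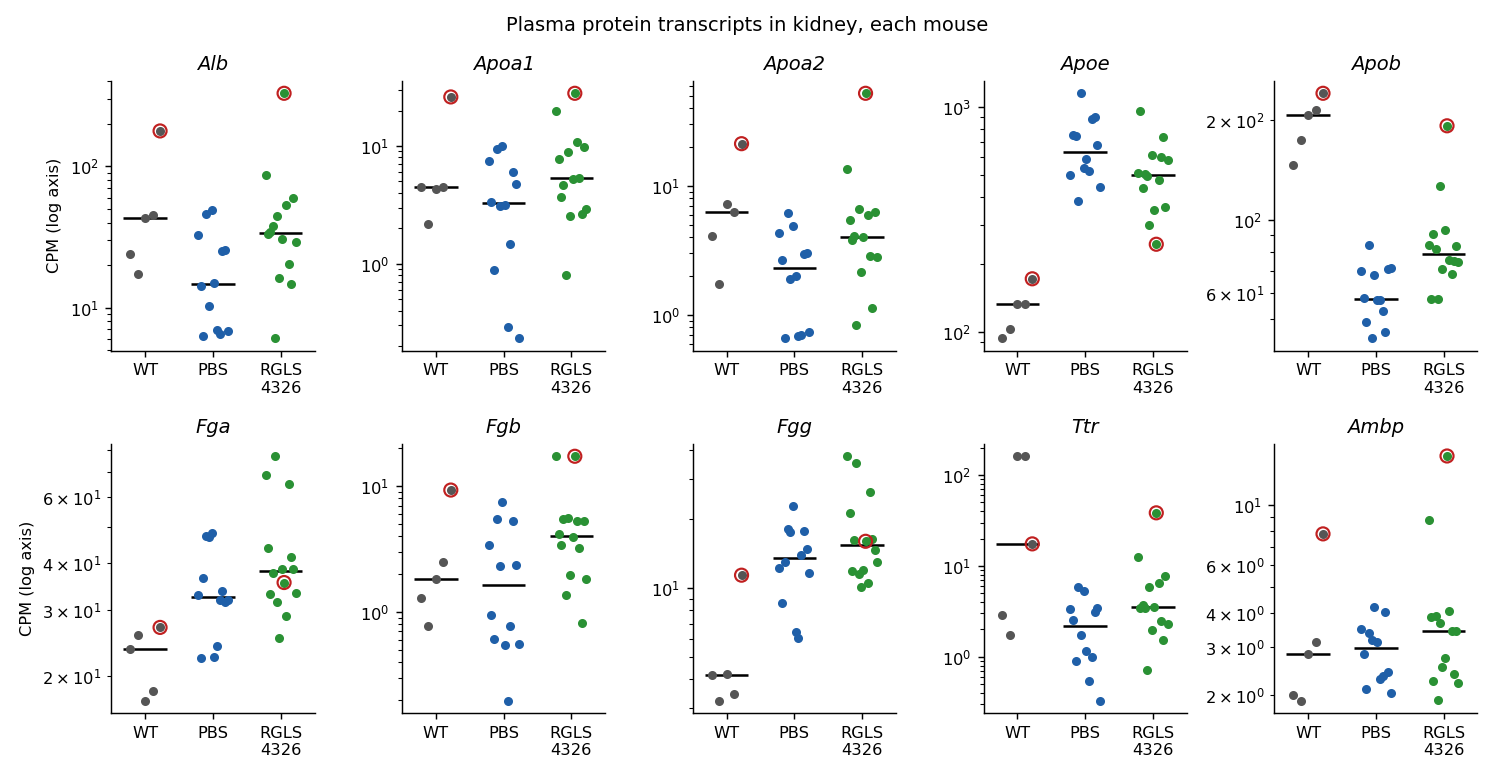
CPM on a log axis of each of the 10 genes in every mouse, for wild type (n = 5), Pcy PBS (n = 12) and Pcy RGLS4326 (n = 14). Black bars are group medians, and red rings mark wild-type mouse 5 and RGLS4326-treated mouse 9. Apoe and Apob separate PBS from wild type, whereas Alb, Apoa1, Apoa2, Fgb and Ttr spread widely within every group.

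The promoters of Alb and of the fibrinogen chains are shown because their transcripts, described below, fell into different patterns across mice, although all are known as genes of the hepatocyte. Each window runs from 250 bases before to 50 bases after the transcription start, on the gene's own strand, from RefSeq annotation of GRCm38.p6. Capitals mark GTTAAT, a half-site of the hepatocyte nuclear factor HNF1, and CTGGGAA, the core of the interleukin 6 response element of fibrinogen genes, each searched on both strands.
Alb, chr5:90460620-90460919, plus strand: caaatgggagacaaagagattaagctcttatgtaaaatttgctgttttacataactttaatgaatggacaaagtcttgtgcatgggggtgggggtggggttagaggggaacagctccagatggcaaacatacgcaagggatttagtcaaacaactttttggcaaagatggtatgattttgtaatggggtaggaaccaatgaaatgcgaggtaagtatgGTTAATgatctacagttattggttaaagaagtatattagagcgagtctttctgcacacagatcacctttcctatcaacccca
Fga, chr3:83025903-83026202, plus strand: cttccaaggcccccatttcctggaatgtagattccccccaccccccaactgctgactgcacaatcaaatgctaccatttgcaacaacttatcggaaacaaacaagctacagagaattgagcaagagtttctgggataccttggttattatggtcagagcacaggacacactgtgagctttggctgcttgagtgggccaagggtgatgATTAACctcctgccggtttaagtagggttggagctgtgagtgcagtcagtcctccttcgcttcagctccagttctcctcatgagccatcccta
Fgb, chr3:83049814-83050113, minus strand: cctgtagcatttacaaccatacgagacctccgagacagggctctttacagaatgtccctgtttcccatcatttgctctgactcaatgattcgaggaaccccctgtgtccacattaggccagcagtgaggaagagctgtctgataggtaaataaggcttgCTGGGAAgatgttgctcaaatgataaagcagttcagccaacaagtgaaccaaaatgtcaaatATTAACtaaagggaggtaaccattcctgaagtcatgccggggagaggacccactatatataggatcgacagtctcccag
Fgg, chr3:83007474-83007773, plus strand: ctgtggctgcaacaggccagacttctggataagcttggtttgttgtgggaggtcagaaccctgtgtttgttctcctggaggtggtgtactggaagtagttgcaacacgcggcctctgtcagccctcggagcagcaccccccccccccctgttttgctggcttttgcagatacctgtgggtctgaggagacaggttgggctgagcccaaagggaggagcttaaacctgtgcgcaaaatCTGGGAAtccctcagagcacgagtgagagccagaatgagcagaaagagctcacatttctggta
GTTAAT occurred in 7.1% of all 32851 promoter windows and, of the 9 members matched in the table, in Alb, Apoe, Fga and Fgb. CTGGGAA occurred in 11.1% of windows and in the members Fgb and Fgg. The 2 motifs share no position in Fgb, whose window holds both. A match is a run of letters, and none of these windows was tested for binding.

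The first comparison was between cystic and normal kidney, that is PBS-treated Pcy/CD1 against wild type. It shares its PBS-treated mice with the rise by which Alb and Apoa2 were chosen. A choice by that rise favours genes low in those mice, and the p-values of Alb and Apoa2 do not allow for it. Of the 10 genes, 7 passed both thresholds of the quasi-likelihood test in edgeR, a Benjamini-Hochberg adjusted p below 0.05 over all 15185 genes and a log2 fold change beyond 0.5 in either direction, which 42.4% of all tested genes passed. Apoe, Fga and Fgg were higher with PBS, where 24.6% of all genes passed as higher, and Alb, Apoa2, Apob and Ttr were lower, where 17.8% passed as lower. The median log2 fold change was −0.66 over the 10 genes and 0.01 over all genes tested. In 2 of the 10, Apoe and Apob, the groups did not overlap, and 42.2% of all genes tested had groups without overlap. Without wild-type mouse 5, 5 of the 10 genes passed (42.5% of all genes), and without wild-type mice 3 and 4 also 5 (40.7%), the second alternative having been chosen after the data were seen. Libraries fall into index series, batches read from the restart of library numbers in the deposited names, and in each of series 1 and 2, which held at least 2 wild-type mice, 3 of the 10 passed (36.7% and 34.2% of all genes). With the replicate number as a block 5 passed (45%).

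**Figure D2:**
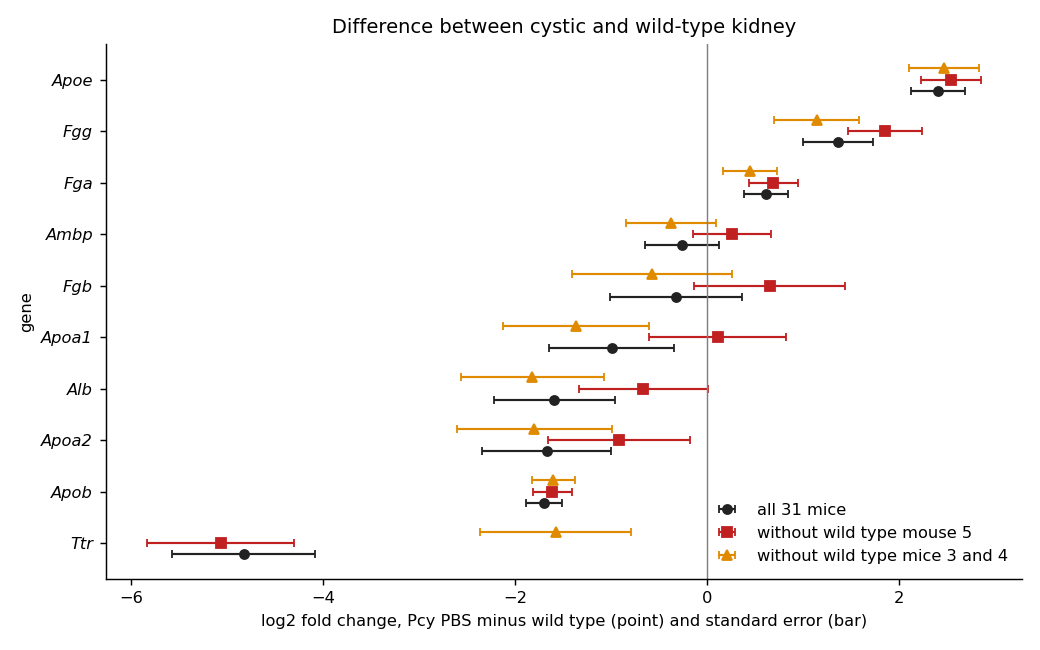
Log2 fold change of PBS over wild type for each gene, points, with the standard error from edgeR, bars, using all 31 mice, leaving out wild-type mouse 5, and leaving out wild-type mice 3 and 4. Apoe and Apob kept their values in all 3 fits, Alb moved from −1.59 to −0.66 without mouse 5, and Ttr moved from −4.83 to −1.58 without mice 3 and 4.

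Apoe, on chromosome 7 from 19696109 to 19699188 of GRCm38, minus strand, was the most abundant of the 10 in cystic kidney. It read 93.4, 103, 133, 133 and 172 CPM in wild-type mice 1 to 5, and 383, 631 and 1153 CPM as the lowest, median and highest PBS-treated mouse. All 12 PBS-treated mice lay above every wild-type mouse. The mean was 127 ± 30.9 CPM (SD, n = 5) in wild type and 673 ± 225 CPM (SD, n = 12) with PBS, a log2 fold change of 2.41 ± 0.28 (SE, 5.31-fold, adjusted p = 2.39e-08, edgeR). Inside index series 1 and 2 it was 2.60 and 2.41 (adjusted p = 0.000698 and 0.0054, edgeR). Macrophage markers moved with it: 8 of the 9 tested were higher with PBS (24.6% of all genes) and none lower. Among them were the complement genes C1qa and C1qc and the lysozyme gene Lyz2. The summed level of the 9 markers was 183 to 217 CPM in wild type and 500 to 867 CPM with PBS. Over the 26 Pcy/CD1 mice, the gene whose levels ranked most like Apoe was Trem2, a receptor of the macrophage lineage (Spearman's rho 0.974), followed by Dcakd and Sepn1 (both 0.951). The part of macrophages in the Apoe difference was not tested.

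Apob, on chromosome 12 from 7977648 to 8016835, plus strand, encodes the structural protein of very low density lipoprotein. It read 146, 174, 207, 215 and 241 CPM in wild-type mice 1 to 5, and 43.8, 57.6 and 83.9 CPM as the lowest, median and highest PBS-treated mouse. Every PBS-treated mouse lay below every wild-type mouse. Mean Apob fell from 197 ± 37.1 CPM (SD, n = 5) to 60.7 ± 12.2 CPM (SD, n = 12), a log2 fold change of −1.70 ± 0.19 (SE, adjusted p = 1.18e-08, edgeR), with −1.30 and −1.88 inside the 2 index series (adjusted p = 0.000917 and 0.00607). All 12 proximal tubule markers also fell, with Slc34a1, the sodium phosphate cotransporter, at a log2 fold change of −1.21 and the organic anion transporter Slc22a6 at −1.25, and the summed level of the list was 71113 to 87413 CPM in wild type against 24937 to 52343 CPM with PBS. Mttp, the transfer protein that loads lipid onto apolipoprotein B, fell by 1.34 on the log2 scale (adjusted p = 4.0e-08, edgeR). Apob ranked most like Zfp874a (rho 0.945), Dnajb9 (0.933) and Lrrc19 (0.927) over the 26 mice. The part of proximal tubule content in the Apob difference was not tested.

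The fibrinogen genes lie within 42.1 kb on chromosome 3, Fgg from 83007724 to 83015049 and Fga from 83026076 to 83033627 on the plus strand, and Fgb from 83040141 to 83049863 on the minus strand. Fga, whose chain carries the thrombin-cleaved fibrinopeptide A, read 23.5, 25.7, 17.1, 18.2 and 26.9 CPM in wild-type mice 1 to 5, and 22.3, 32.4 and 48.0 CPM as the lowest, median and highest PBS-treated mouse. The groups overlapped, with 9 of 12 PBS-treated mice above all wild-type mice, and the log2 fold change was 0.61 ± 0.23 (SE, adjusted p = 0.0171, edgeR). It missed the threshold without wild-type mouse 3 (adjusted p = 0.0559) and without wild-type mouse 4 (0.0508), and inside index series 1 and 2 (log2 fold change 0.50 and 1.02, adjusted p = 0.211 and 0.0881).

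Fgg, the gamma chain, read 4.19, 3.21, 4.20, 3.45 and 11.4 CPM in wild-type mice 1 to 5, and 6.05, 13.5 and 22.9 CPM as the lowest, median and highest PBS-treated mouse. Wild-type mouse 5 alone reached into the PBS range, and 9 of 12 PBS-treated mice exceeded it. The log2 fold change was 1.37 ± 0.36 (SE, adjusted p = 0.00119, edgeR) with all mice and 1.85 without mouse 5. It was 1.81 in each of index series 1 and 2, with an adjusted p of 0.0102 in the first and 0.0506 in the second.

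Fgb, the beta chain, read 1.30, 0.772, 1.83, 2.48 and 9.33 CPM in wild-type mice 1 to 5, and 0.195, 1.64 and 7.49 CPM as the lowest, median and highest PBS-treated mouse, the lowest value resting on 4 counts. PBS-treated mice covered the range of wild-type mice 1 to 4 and went beyond it at both ends. The log2 fold change of −0.32 ± 0.69 (SE) did not pass (adjusted p = 0.678, edgeR), and it turned to 0.65 without mouse 5 and to 1.32 and 0.34 inside index series 1 and 2 (adjusted p = 0.295 and 0.836).

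Per kb of exon, the chains were far from equal. Fgb stood at 8.47% of Fga in the median wild-type mouse, 3.64% with PBS and 8.13% with RGLS4326, with a range over all groups of 0.644% to 38.6%. Fgg stood at 27.2%, 54.4% and 57.1% of Fga in the same order. With PBS the Fgg share ran from 36.3% to 75.7%, and the highest wild-type mouse, mouse 5, stood at 60.8%. Fga and Fgg were each other's nearest gene over the 26 Pcy/CD1 mice (rho 0.907), and the next gene in rank reached 0.621 for Fga (Zbtb21) and 0.672 for Fgg (Apcs). Fgb instead ranked most like Ahsg (0.949), Serpina3k (0.942) and Mug1 (0.928), all genes of secreted liver proteins.

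**Figure D3:**
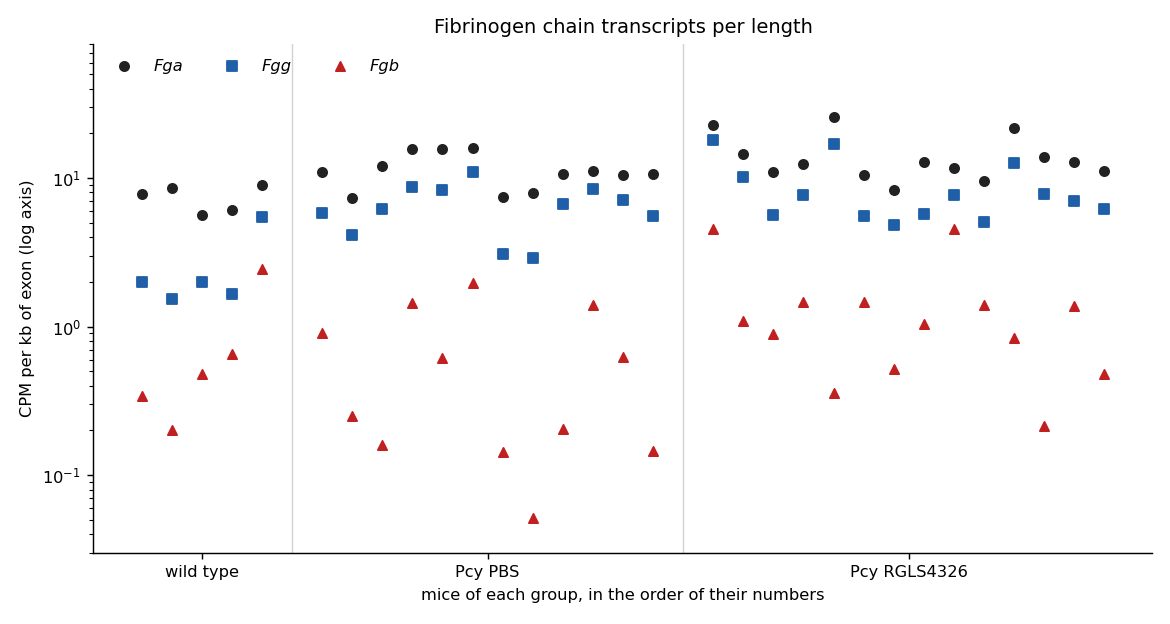
CPM per kb of merged exon, on a log axis, of Fga, Fgg and Fgb in each mouse, grouped as wild type, Pcy PBS and Pcy RGLS4326. Fgg followed Fga from mouse to mouse in the Pcy/CD1 groups, and Fgb lay below both in every mouse, between 0.644% and 38.6% of Fga.

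Alb, on chromosome 5 from 90460897 to 90476602, plus strand, encodes the main protein of plasma. It read 24.1, 17.2, 43.1, 45.0 and 178 CPM in wild-type mice 1 to 5, and 6.25, 14.7 and 49.1 CPM as the lowest, median and highest PBS-treated mouse. The groups overlapped, with 7 of 12 PBS-treated mice below all wild-type mice. The mean was 61.6 ± 66.4 CPM (SD, n = 5) in wild type and 20.4 ± 15.4 CPM (SD, n = 12) with PBS, a log2 fold change of −1.59 ± 0.63 (SE, adjusted p = 0.0239, edgeR). Without wild-type mouse 5 it was −0.66 (adjusted p = 0.378, edgeR), and inside index series 1 and 2 it was 0.26 and −1.08 (adjusted p = 0.757 and 0.492). The call thus rested on mouse 5, which was also the only wild-type mouse of index series 3.

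Apoa2, on chromosome 1 from 171225054 to 171226379, plus strand, and Apoa1, on chromosome 9 from 46228580 to 46230466, plus strand, encode the major proteins of high density lipoprotein. Apoa2 read 4.07, 1.72, 7.28, 6.24 and 21.3 CPM in wild-type mice 1 to 5, and 0.658, 2.32 and 6.13 CPM as the lowest, median and highest PBS-treated mouse. Its log2 fold change was −1.67 ± 0.68 (SE, adjusted p = 0.0269, edgeR), and −0.92 without mouse 5 (adjusted p = 0.263). As for Alb, it turned sign inside index series 1 (0.24, adjusted p = 0.808, with −1.48 and 0.357 inside series 2).

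Apoa1 read 4.48, 2.20, 4.32, 4.48 and 26.1 CPM in wild-type mice 1 to 5, and 0.232, 3.26 and 9.96 CPM as the lowest, median and highest PBS-treated mouse. Only mouse 5 lay above the PBS range. The log2 fold change of −0.99 ± 0.65 (SE) did not pass (adjusted p = 0.167, edgeR), and it turned to 0.11 ± 0.71 (SE, adjusted p = 0.894) without mouse 5, and was 0.65 and −0.06 inside index series 1 and 2 (adjusted p = 0.551 and 0.973). Ambp, on chromosome 4 from 63143275 to 63154799, minus strand, encodes alpha-1-microglobulin, a small filtered protein, together with the protease inhibitor bikunin. It read 2.01, 1.90, 2.84, 3.15 and 7.83 CPM in wild-type mice 1 to 5, and 2.04, 2.99 and 4.21 CPM as the lowest, median and highest PBS-treated mouse, a log2 fold change of −0.26 ± 0.38 (SE, adjusted p = 0.547, edgeR) that turned to 0.26 ± 0.41 (SE, adjusted p = 0.572) without mouse 5 and to 0.59 and 0.12 inside index series 1 and 2 (adjusted p = 0.323 and 0.906). Wild-type mice 3 and 4 lay inside the PBS range of Ambp, and mice 1 and 2 lay below its lowest value.

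Ttr, which carries thyroxine and retinol-binding protein in plasma, had the largest log2 fold change of the 10 but the least even wild-type values. It read 2.89, 1.72, 161, 162 and 17.5 CPM in wild-type mice 1 to 5, and 0.325, 2.15 and 5.78 CPM as the lowest, median and highest PBS-treated mouse. Wild-type mice 1 and 2 lay within the PBS range, whereas mice 3 and 4, both of index series 2, lay far above every other kidney of the study. With all mice the log2 fold change was −4.83 ± 0.74 (SE, adjusted p = 1.33e-06, edgeR). Counting mice 3 and 4 as 1 sample gave −4.24 (adjusted p = 1.87e-05). Leaving out both gave −1.58 ± 0.79 (SE, adjusted p = 0.077), and the value was 0.44 inside index series 1 (adjusted p = 0.637) and −6.16 inside index series 2 (adjusted p = 0.00596). The summed level of hepatocyte markers without Gnmt was 9.61, 6.06, 17.1, 17.4 and 50.6 CPM in wild-type mice 1 to 5, higher in mice 3 and 4 than in mice 1 and 2 and highest in mouse 5, and its part in the Ttr levels was not tested.

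Across mice, 6 of the genes were uneven in the same animals. Over the 26 Pcy/CD1 mice, Spearman's rho among Alb, Apoa1, Apoa2, Fgb, Ttr and Ambp ran from 0.76 to 0.97. Because unevenness between mice entered the choice of genes, these correlations and those within groups are a description and carry no p. Within each Pcy/CD1 group 13 pairs were examined, 26 relations in all.

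**Figure D4:**
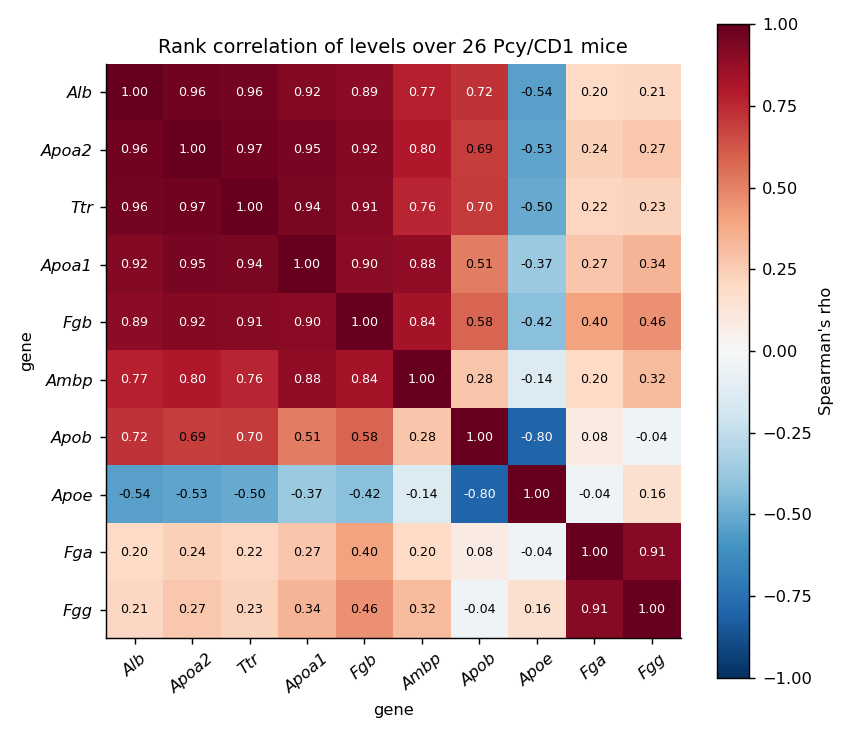
Spearman's rho between the levels of each pair of genes over the 26 Pcy/CD1 mice, red for positive and blue for negative. Alb, Apoa2, Ttr, Apoa1, Fgb and Ambp form a block of rho 0.76 to 0.97, Fga and Fgg pair with each other at 0.91, and Apoe and Apob stand at −0.80.

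Alb and Apoa2 gave r = 0.974 and rho = 0.965 among PBS-treated mice (n = 12), and r = 0.964 without the 2 mice farthest from the median of Alb. With RGLS4326 they gave r = 0.972 and rho = 0.960 (n = 14), and r = 0.946 without mice 5 and 9. Alb and Ttr gave r = 0.943 with PBS and 0.980 with RGLS4326 (rho = 0.909 and 0.965), and Alb and Fgb gave r = 0.887 and 0.891 (rho = 0.783 and 0.925). Each index series holds 4 or 5 mice of a group, too few for a correlation of its own.

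Fga, Apob and Apoe followed Alb less closely. Alb and Fga gave r = 0.407 with PBS (rho = 0.329) and −0.256 with RGLS4326 (rho = −0.196). RGLS4326-treated mouse 5 had both the lowest Alb of its group, 6.05 CPM, and the highest Fga, 77.3 CPM. Alb and Apob gave r = 0.535 with PBS and 0.787 with RGLS4326 (rho = 0.490 and 0.710), and 0.275 and 0.355 without 2 mice (rho = 0.297 and 0.538). Alb and Apoe gave r = −0.347 and −0.580, and −0.0233 and −0.475 without 2 mice.

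Among the chains, Fga and Fgg gave r = 0.900 with PBS and 0.962 with RGLS4326 (rho = 0.825 and 0.947), with 0.862 and 0.924 without 2 mice. Fgb and Fgg gave r = 0.809 and rho = 0.867 with PBS, and r = 0.163 and rho = −0.0198 with RGLS4326. Fga and Fgb gave r = 0.703 and rho = 0.664 with PBS, 0.489 without 2 mice, and r = 0.0445 and rho = −0.125 with RGLS4326. The difference between the groups in these pairs was not tested. Fgb and Lcn2 gave r = −0.101 with PBS and −0.561 with RGLS4326 (rho = 0.042 and −0.424).

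Markers of hepatocytes that are not secreted moved with the uneven genes. The list held 20 genes, of which 14 passed the filter on counts. With PBS against wild type 2 were higher and 6 lower (24.6% and 17.8% of all genes), and 2 higher and 3 lower without wild-type mouse 5. The median log2 fold change was −1.62 with that mouse and −0.63 without it. The most abundant member of the list was Gnmt, an enzyme of methyl group balance. It took 67.1% of the list's summed level in the median wild-type mouse. Without Gnmt the summed level was 6.06 to 50.6 CPM in wild type, 5.22 to 15.7 CPM with PBS and 6.17 to 132 CPM with RGLS4326, the highest being wild-type mouse 5 and RGLS4326-treated mouse 9. The bile acid enzyme Cyp7a1 was at 0 in all PBS-treated mice and also in wild-type mouse 5, and above 0 in some wild-type and some treated mice. It did not pass the filter on counts, so a 0 in a single mouse says little. The drug-metabolizing enzyme Cyp3a11 reached 34.7 CPM in RGLS4326-treated mouse 9 and 8.61 CPM in wild-type mouse 5. The mean of Cyp3a11 with PBS was 0.987 CPM.

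A relation chosen after the data were seen set each gene against the mean log2(CPM + 1) of the 20 markers, 20 relations in all, again as a description with no p. For Alb, r was 0.981 and rho 0.909 with PBS (n = 12), and r was 0.921 and rho 0.996 with RGLS4326 (n = 14). Without the 2 mice farthest in the marker score, r was 0.977 and 0.927. For Apoa1, Apoa2, Fgb, Ttr and Ambp, r ran from 0.801 to 0.967 over both groups.

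Fga gave r = 0.485 with PBS and −0.0858 with RGLS4326 (rho = 0.42 and −0.165), and Fgg gave r = 0.583 and 0.0322 (rho = 0.671 and −0.0769). Apob gave r = 0.496 with PBS (rho = 0.294) and 0.816 with RGLS4326 (rho = 0.701), the latter being 0.511 (rho = 0.629) without treated mice 1 and 9. Apoe gave r = −0.302 with PBS (rho = −0.0979) and −0.618 with RGLS4326 (rho = −0.574), the latter being −0.497 (rho = −0.559) without those mice. The part of liver RNA in any of these levels was not tested.

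**Figure D5:**
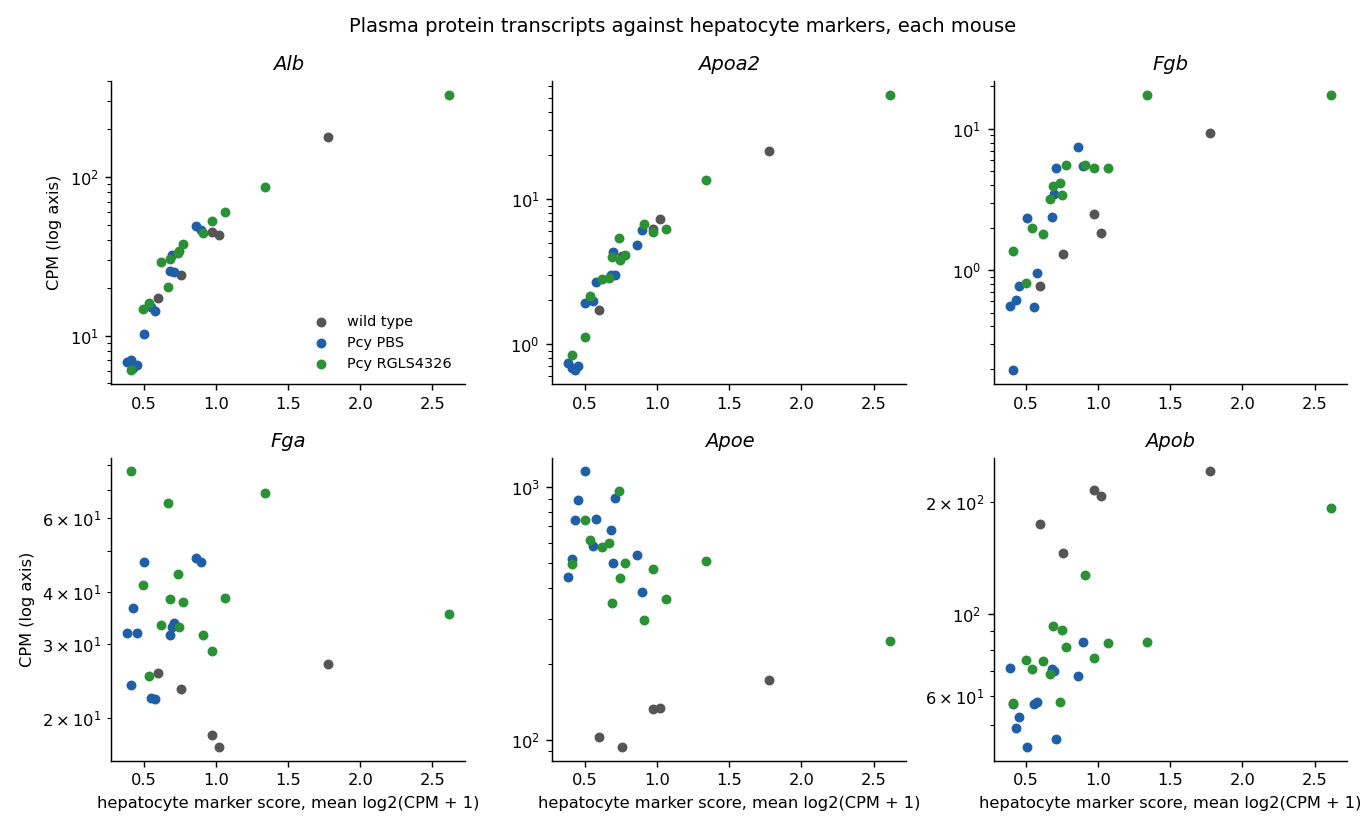
CPM on a log axis of Alb, Apoa2, Fgb, Fga, Apoe and Apob against the hepatocyte marker score of the same mouse, mean log2(CPM + 1) of 20 markers, with 1 point per mouse. Alb and Apoa2 lay along 1 curve through all groups, up to 178 CPM of Alb in wild-type mouse 5 and 330 CPM in RGLS4326-treated mouse 9, whereas Fga did not follow the score.

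Alb ranked most like Cyp3a11 (rho 0.973), the fatty acid binding protein gene Fabp1 (0.964) and Apoa2 (0.962). Apoa1 ranked most like Serpina1c (0.970), Serpina3k (0.954) and Mug1 (0.954), and Apoa2 like Serpina3k (0.977), Ttr (0.967) and Fabp1 (0.965). Ttr ranked most like Apoa2 (0.967), Cyp3a11 (0.963) and Ahsg (0.960), and Ambp like Serpina1a (0.913), Mug1 (0.907) and Apoa1 (0.884). Of the ratios examined per kb of exon, Apoa2 per Alb ran from 33.1% to 81.4% over all 31 mice and Apoa1 per Apoa2 from 13.6% to 103%, while Alb itself ran from 6.05 to 330 CPM.

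The second comparison was RGLS4326 against PBS, the contrast by which the genes were chosen, so it is given without a test. Past the thresholds used above stood 3 of the 10, Alb, Apoa2 and Apob, all higher with RGLS4326. Of all tested genes, 2.15% passed in either direction and 0.935% as higher. Without treated mouse 9, 0 of the 10 passed, and 145 of all 15166 genes tested did (edgeR). Nothing is read from these counts. By size alone, 7 of the 10 genes had a log2 fold change over 0.5 with all mice and 5 without treated mouse 9, and the median over the 10 was 0.75 and 0.54.

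Marker lists were read in the same contrast, also as a description. Of the 14 hepatocyte markers tested, 7 were called higher and none lower with all mice. Their median log2 fold change was 1.36, against −0.0043 over all genes tested. The marker score followed Alb closely within both groups, and Alb was chosen for its rise in this contrast. These calls are therefore no separate support for a rise. Without mouse 9, 13 were tested, 0 were called (edgeR, 4 at an unadjusted p under 0.05) and the median was 0.78. Over all genes, 4851 of 15166 had an unadjusted p under 0.05 in that fit, and 5595 of 15185 with all mice (edgeR). Nothing is read from the 4. All 12 proximal tubule markers had a higher fitted level with RGLS4326, with a median of 0.38 with mouse 9 and 0.32 without it, and 0 were called (edgeR, 11 at an unadjusted p under 0.05 in each fit). The part of either cell type in the levels below was not tested.

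Alb read 6.05, 33.8 and 330 CPM as the lowest, median and highest treated mouse, and 13 of 14 treated mice lay above the PBS median of 14.7 CPM. The groups overlapped, with 4 treated mice above every PBS-treated mouse and 1 below. Mean Alb was 56.9 ± 81.2 CPM (SD, n = 14), 2.79 times the PBS mean, and 35.9 ± 21.5 CPM without mouse 9, 1.76 times the PBS mean. The fitted log2 fold change was 1.48 ± 0.51 (SE) with mouse 9 and 0.81 without it, and 0.96, 2.06 and 1.13 inside the 3 index series, mouse 9 belonging to the second.

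Apoa2 read 0.841, 4.06 and 52.2 CPM as the lowest, median and highest treated mouse, with 11 of 14 above the PBS median of 2.32 CPM. Its mean was 3.13 times the PBS mean with mouse 9 and 1.79 times without it. Apob read 57.5, 78.6 and 193 CPM, with 13 of 14 above the PBS median and 5 above every PBS-treated mouse, and its ratio of means to PBS was 1.45 with mouse 9 and 1.32 without it. Ttr had a log2 fold change of 1.47 with mouse 9 and 0.82 without it, Fgb 1.14 and 0.88, Apoa1 0.95 and 0.64, and Ambp 0.55 and 0.24.

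Fga and Fgg hardly moved when mouse 9 was left out. Fga read 25.2, 38.1 and 77.3 CPM as the lowest, median and highest treated mouse, a log2 fold change over PBS of 0.33 with mouse 9 and 0.35 without it. Fgg read 10.1, 15.4 and 37.7 CPM, a log2 fold change of 0.41 and 0.43. Mice 1, 5 and 11 lay above every PBS-treated mouse for Fga, at 68.7, 77.3 and 65.1 CPM, and the same mice did so for Fgg, at 37.7, 35.2 and 26.3 CPM.

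Apoe was the only gene of the 10 with a lower fitted level in treated than in PBS-treated mice. It read 245, 499 and 963 CPM as the lowest, median and highest treated mouse, with 2 of 14 above the PBS median of 631 CPM and 4 below every PBS-treated mouse. The log2 fold change was −0.39 ± 0.18 (SE), −0.34 without mouse 9, and 0.02, −0.80 and −0.40 inside the 3 index series. Summed macrophage markers overlapped between the groups, at 500 to 867 CPM with PBS and 193 to 1020 CPM with RGLS4326. Of 9 macrophage markers tested, 9 had a lower fitted level with RGLS4326 and 0 were called (edgeR, 2 at an unadjusted p under 0.05). Their median log2 fold change was −0.20, and −0.10 without mouse 9. The part of macrophages was again not tested.

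The order of the genes by level per length differed between wild-type and cystic kidney. In wild type, Apoe (59.3 ± 14.5 CPM per kb of exon, SD, n = 5) and Ttr (58.1 ± 71.2) came first and did not differ beyond their spread, followed by Alb (26.3 ± 28.3), Apoa2 (15.1 ± 14.2) and Apob (14.1 ± 2.66). Without mice 3 and 4, Ttr fell to 6.20 ± 7.39 CPM per kb and to place 7 of 10, and without mouse 5 Alb was at 13.8 ± 5.91 and Apoa2 at 8.99 ± 4.59, behind Apob. Alb stood above Apoa2 in 5 of 5 mice, and Apoa2 above Apob in 1 of 5. With PBS, Apoe came first at 315 ± 105 CPM per kb (SD, n = 12), above the next gene in 12 of 12 mice, followed by Fga (11.3 ± 3.06), Alb (8.72 ± 6.59), Fgg (6.49 ± 2.41), Apoa2 (4.76 ± 3.38) and Apob (4.35 ± 0.874). The neighbours from Fga to Ttr kept their order in 7 or 8 of 12 mice and did not differ beyond their spread, and Ttr stood above Fgb in 12 of 12. Fgb was last in all 3 groups, at 0.825, 0.657 and 1.45 CPM per kb in wild type, PBS and RGLS4326. With RGLS4326, Apoe stayed first at 239 ± 87.3 CPM per kb (SD, n = 14), and Alb came second at 24.3 ± 34.7, or 15.3 ± 9.19 without mouse 9. Apoa2 followed at 14.9 ± 24.4, and without mouse 9 at 8.53 ± 6.13 it lay behind Fga and Fgg.

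Taken as a share of all gene counts, the 10 genes together made up 250 to 608 unscaled CPM in wild type, 567 to 1443 with PBS and 505 to 1240 with RGLS4326. Apoe supplied 24.2% of these counts in the median wild-type mouse, 84.0% with PBS and 71.1% with RGLS4326.

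Another 38 genes of secreted liver proteins, of which 35 were tested, gave a wider view of the class. With PBS against wild type, 6 were higher and 10 lower (edgeR, same thresholds, 24.6% and 17.8% of all genes), with a median log2 fold change of −0.45. Without wild-type mouse 5, 9 were higher and 6 lower, all 6 being among the 10, and the median turned to 0.33. The median over all genes tested was 0.01 with that mouse and 0.02 without it. The ferroxidase gene Cp rose from 33.2 ± 17.97 CPM (SD, n = 5) to 127 ± 38.6 CPM (SD, n = 12), a log2 fold change of 1.93 (adjusted p = 7.23e-07, edgeR). Itih1, a hyaluronan-binding inhibitor chain, rose by 0.86 on the log2 scale, and Apom, the sphingosine-1-phosphate carrier of high density lipoprotein, fell by 1.57. The kininogen gene Kng2, the most abundant of the list, stood at 324 CPM in wild type and 318 CPM with PBS (adjusted p = 0.725, edgeR).

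Interleukin 6 and acute phase genes, the pathway that drives fibrinogen in liver, were mostly higher in cystic kidney. Of 23 tested, 14 were higher and 2 lower with PBS (24.6% and 17.8% of all genes), with a median log2 fold change of 1.87. Without wild-type mouse 5 it was 14 higher and 1 lower of 24. Lcn2 rose by 6.68 on the log2 scale, the oncostatin M receptor Osmr by 2.26 and the interleukin 1 receptor Il1r1 by 1.47, while the leukemia inhibitory factor receptor Lifr fell by 0.98 (adjusted p from 1.58e-08 to 7.24e-08, edgeR). Il6st, the shared receptor subunit gp130, had a log2 fold change of −0.39 and Jak1 of −0.29, both within the size threshold.

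Of 15 tested transcription factors of liver and proximal tubule, 3 were higher and 7 lower with PBS (24.6% and 17.8% of all genes). Hnf4a, a regulator of Alb and apolipoprotein genes, fell from 1095 ± 24.6 CPM (SD, n = 5) to 611 ± 104 CPM (SD, n = 12), a log2 fold change of −0.84 (adjusted p = 4.95e-07, edgeR). The bile acid receptor Nr1h4 fell by 1.48 and the fatty acid receptor Ppara fell from a mean of 208 CPM to 73.4 CPM, whereas Cebpd, an acute phase factor, rose by 2.21.

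Genes of lipoprotein assembly, remodelling and uptake split, with 8 of 24 tested higher and 8 lower with PBS (24.6% and 17.8% of all genes). Without wild-type mouse 5 it was 10 and 8, and the median log2 fold change was 0.11 with all mice. The receptors Lrp2 and Cubn fell by 1.34 and 1.11 on the log2 scale, their adaptor Dab2 by 0.78 and their partner Amn by 0.68. All 4 belong to the proximal tubule uptake of filtered plasma proteins. Lrp2 and Cubn are also among the 12 proximal tubule markers given beside Apob, so that the lower level of that list includes theirs.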

How the data were processed

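Kidney RNA was measured in 31 mice: 5 wild type, 12 Pcy PBS and 14 Pcy RGLS4326, each with 1 library from the sample labels. The authors prepared stranded poly(A) libraries, sequenced paired reads on a NextSeq 500, trimmed them with TrimGalore, aligned them to GRCm38 with STAR and used HTSeq to count reads with a unique position. The submitters' processing notes also name FastQC 0.11.2, SAMtools 1.1, HTSeq 0.6.1 and Picard 1.119. The strand setting and annotation release of the counting are not given in the sources used here. The deposited values are raw counts per gene, with no normalization. Summary lines that name no gene held 26.9% to 31.1% of each library's total and were left out.

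Counts were filtered with filterByExpr and scaled by TMM in edgeR 4.0.16 (R 4.3.3), and 1 coefficient per group was fitted to all 31 mice by quasi-likelihood. A gene was called with an adjusted p below 0.05 and a log2 fold change beyond 0.5 either way. SE values are approximate, the size of the log2 fold change over the root of F. Levels per length divide CPM by merged exon length in GENCODE annotation of GRCm38. Correlations used log2(CPM + 1) and are given without a test, since unevenness between mice entered the choice of genes. Wild-type values, 5 per gene, were screened for a lone extreme with Dixon's ratio above 0.71. Python 3.11.15 with scipy 1.17.1 and pandas 2.3.3 served the remaining steps, and DESeq2 1.42.0 was an alternative. On simulated counts for PBS against wild type over 15185 genes, 171 of 200 genes changed by 1 on the log2 scale were called, with 6 unchanged genes.

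The 10 genes and all lists were chosen with earlier results of these data known. In the main fit the p-values measure the spread between mice within groups. That spread was estimated jointly from all 31 mice, treated mouse 9 among them. Of each list, at most the 3 genes with the highest mean CPM and the 3 called genes with the smallest p for PBS against wild type were named, with Lcn2 and, for each of the 10 genes, the 3 nearest by Spearman's rho; Cyp7a1 and Trem2 as a marker fall outside the list rule. Alternatives changed the filter, the scaling, the tool, the mice fitted, the size threshold and the gene length, or added the index series or a replicate block. The pancreas, adrenal, blood, adipocyte, podocyte and endothelial lists were examined for other tissues.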

Additional observations from a re-analysis of the deposited data

Results flagged for a closer look

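Among the 5 wild-type mice, the level of mouse 5 was set apart from the others by more than Dixon's 95% value, used as a screen, in 6 of the 10 genes. It read 178 CPM for Alb, 26.1 CPM for Apoa1 and 21.3 CPM for Apoa2. It read 9.33 CPM for Fgb, 11.4 CPM for Fgg and 7.83 CPM for Ambp. The genes were chosen partly for being uneven between mice, so this is a description and not a test. The share of all genes in which mouse 5 was so set apart is not given here. Chance sets a sample apart in about 1 of 20 groups where genes are not so chosen, and the 6 genes come from the same mouse and rise together, so they are not 6 separate observations. The same mouse had the highest summed hepatocyte markers of its group, 50.6 CPM without Gnmt against 6.06 to 17.4 CPM in the other 4, and the part of liver RNA was not tested. The wild-type levels of these 6 genes should be read with that mouse and without it.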

How the results depend on the processing

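Limits lie in the 5 wild-type mice, 1 treated mouse near wild type and low counts, down to 4 for Fgb. The call of PBS against wild type held for Apoe and Apob under every alternative run. Its log2 fold change turned to 0.26 for Alb, 0.24 for Apoa2 and 0.44 for Ttr inside index series 1. Each of series 1 and 2 left 3 of the 10 genes called (36.7% and 34.2% of all genes). Leaving out 1 wild-type mouse or treated mouse 9 gave 5 to 7 called genes of the 10 and 6360 to 6482 called genes in all. With no threshold on size, 11281 genes were called for PBS against wild type and 2402 for RGLS4326 against PBS.

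RGLS4326 against PBS called 327 genes, 210 with only those groups in the fit, 43 with the replicate block and 0 inside each index series (edgeR, with 280, 2981 and 3101 genes at an unadjusted p under 0.05), and 78 to 574 when 1 mouse was left out. Of the 10 genes it held 3, 1 with only those groups, 1 with index series as a covariate, 0 with the replicate block, 0 inside each series and 0 to 3 without 1 mouse, 0 being the value without PBS mouse 10, treated mouse 6 or treated mouse 9. DESeq2 also held 3. These counts describe values that chose the genes and are no test of them. Mice with the same number showed no shared deviation on average. The correlation averaged −0.05 over 12 PBS and RGLS4326 pairs (−0.40 to 0.42) and 0.06 over 5 wild-type and PBS pairs (−0.04 to 0.18). The numbers were not taken to pair the mice, although averages over so wide a range cannot exclude a pairing. The block left 5 of the 10 called for PBS against wild type. Apoe with PBS was 478 CPM per kb by its longest transcript. The causes were not tested.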

Other observations

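Of 9 exocrine pancreas markers only Cela1 was above trace levels, at 74.0 CPM in wild type and 42.0 CPM with PBS, and 4 were at 0 in all 31 mice. The summed level of the list was 83.6 CPM in wild-type mouse 5, against 70.5 to 73.2 CPM in the other wild-type mice, and 65.7 CPM in RGLS4326-treated mouse 9, against 36.8 to 58.2 CPM in the other treated mice. Elsewhere it went with Alb in some mice and not in others. Treated mouse 13, with Alb at 60.1 CPM, had the next highest sum of its group, 58.2 CPM. Treated mouse 1, with the next highest Alb of its group at 86.3 CPM, had the lowest sum. With PBS the highest sum, 60.2 CPM, was in mouse 7, whose Alb was 15.1 CPM. The relation was not tested. Treated mouse 9 also had the highest summed blood cell markers of its group, 7.51 CPM against 2.44 to 4.69 CPM, and the highest summed podocyte and endothelial markers, 461 CPM against 237 to 397 CPM, whereas wild-type mouse 5 lay inside the range of its group for both. Hemoglobin genes were at or near 0, and summed adrenal cortex markers stayed between 2.10 and 4.52 CPM.

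Adipocyte markers were uneven in another way than the liver genes. Their summed level ran from 0.0997 to 80.8 CPM with PBS and from 0 to 100.1 CPM with RGLS4326, with medians of 0.855 and 8.41 CPM, and from 0.121 to 3.55 CPM in wild type. The complement factor gene Cfd led the list, at a mean of 8.55 ± 15.9 CPM (SD, n = 12) with PBS.

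Of 7 podocyte and endothelial markers, 1 was lower and none higher with PBS than in wild type (edgeR, adjusted p under 0.05 and absolute log2 fold change over 0.5). Over all genes, 17.8% were lower and 24.6% higher. The lower marker was the vascular endothelial growth factor receptor Kdr, with a log2 fold change of −1.05.

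Gnmt, the hepatocyte marker that dominated its list, fell from 37.1 ± 3.76 CPM (SD, n = 5) to 8.82 ± 2.51 CPM (SD, n = 12) with PBS, a log2 fold change of −2.08 (adjusted p = 6.58e-08, edgeR). It was at 34.4 CPM in wild-type mouse 5, within the range its group mean and SD describe, unlike Cyp3a11 in the same mouse. Tfr2, another gene of the list, rose by 1.32 on the log2 scale.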
